A study of Caenorhabditis elegans with 4 samples.

Results

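The small ribosomal subunit protein genes of the nematode Caenorhabditis elegans were described here in total RNA of early embryos, on 4 single-colour arrays labelled by NimbleGen. The members were 31 genes, rps-0 to rps-30, found by their sequence identifiers among the 23181 transcripts of each array, which carry 19380 genes with a name in the reference table. Each member was represented by 1 transcript, so no isoforms could be compared. Of them, 4 carry other symbols in the reference, namely rpsa-1 for rps-0, rps-3A for rps-1, rps-15A for rps-22 and fau-1 for rps-30. The list was defined by gene family, and earlier results of these data were known when it was chosen.

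All 4 samples form 1 group, labelled as strain PFR40 with the allele tm1489 of hpl-2, early embryo stage, and no treatment is named. The product of hpl-2 is a heterochromatin protein that binds methylated histone tails. The parents are described as hermaphrodites with some males, and the embryos were released by bleaching. The growth protocol names N2 as the strain of the adults, which conflicts with the genotype labels, and nothing given here settles it. Wild-type arrays that the design text sets beside these were not analysed here, so no value below is a difference between mutant and wild type. The labels do not say whether replicates 1 to 4, called arrays 1 to 4, came from separate cultures. The p-values below thus cover no more than the spread of these samples, which may be technical.

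The small ribosomal subunit binds messenger RNA, scans it for a start codon and matches each codon with a transfer RNA. Its proteins are assembled on the small ribosomal RNA in the nucleolus, and growing cells make them in near-equal numbers. Early embryos start with ribosomes and ribosomal protein messages supplied by the mother and add to them as zygotic transcription begins. Some of the proteins have a counterpart in bacteria, and others are found only in eukaryotes or in eukaryotes and archaea. In the assembled particle they sit in the head, which swivels during translation, or in the body and its platform.

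The arrays gave linear signals with medians of 576 to 591 and maxima of 49725 to 50520, after quantile normalization by the authors. Pearson's r of the log2 signals between pairs of arrays was 0.981 to 0.996 across transcripts, which do not count as replicates, and the lowest value belonged to arrays 1 and 2. No member had the same value on any pair of arrays. The hpl-2 transcript K01G5.2a gave signals of 2407, 2583, 2432 and 2487 on arrays 1 to 4. K01G5.2b gave 1459, 1599, 1448 and 1576, and K01G5.2c gave 1412, 1503, 1378 and 1507. These hpl-2 transcripts lay 2.96, 2.25 and 2.18 above background on the log2 scale. The place of their probes relative to the deletion was not given. Of the maternal marker list fixed for the early embryo 12 of 12 genes were above background, against 51.9% of all named genes. Of the early zygotic list 7 of 10 were, with med-1 and med-2 not told apart from background and hlh-27 below it. Array 1 also stood apart in tissue markers, with body wall muscle genes summing to 78766 there and to 38145 to 48000 on the others, so results on the array order are given with and without it. The number of arrays limits the precision.

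Every small subunit protein gene gave a strong signal on every array. All 31 members lay above background, against 55.1% of all transcripts, by 3.84 to 6.57 on the log2 scale with a median of 5.63. Over all transcripts the median was 0.86. Background was set on each array at the level that 95% of 1343 chemoreceptor genes, receptors used by neurons, did not exceed, which came to signals of 272, 349, 306 and 357 on arrays 1 to 4. The test was limma on log2 signal minus that background, two-sided, with Benjamini-Hochberg adjustment over all transcripts at 0.05. The members' adjusted p ran from 2.58e-10 to 6.73e-09. Signals of different probes depend on the probes themselves, so the levels are given gene by gene and are not an order of RNA amounts. The background differs between arrays, and that difference enters the SD of each value above background but not the SD of the log2 signal used for the spread between arrays.

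**Figure D1:**
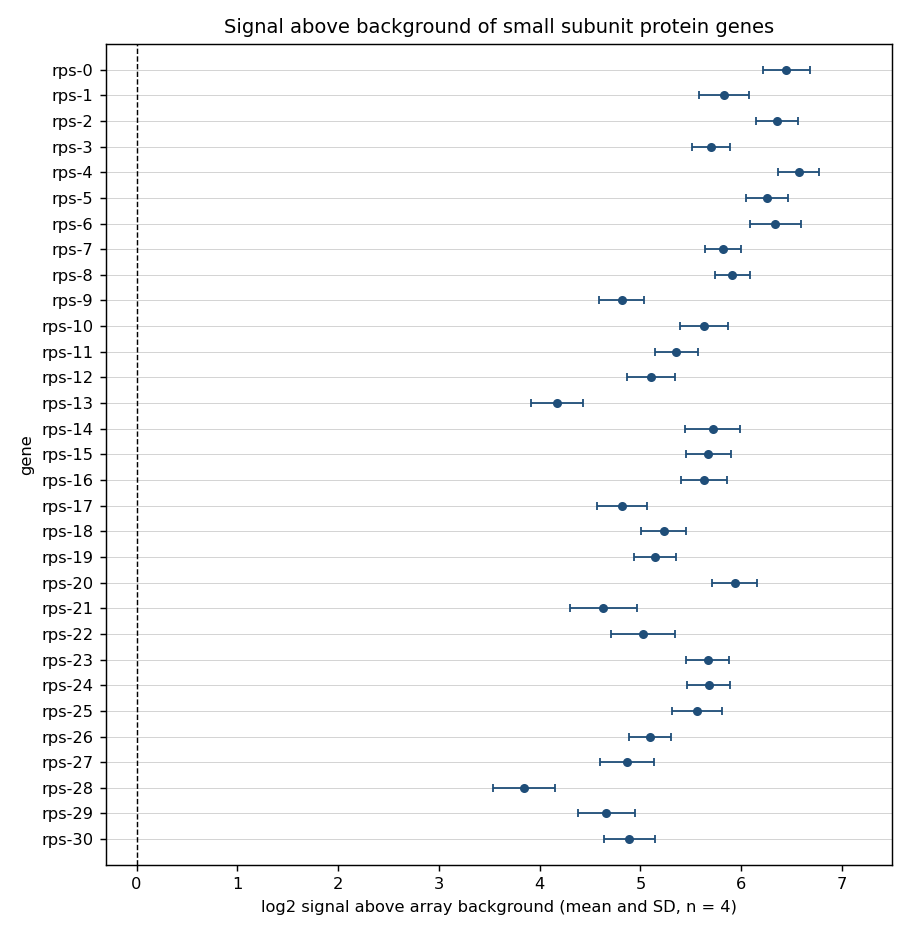
Mean log2 signal above the array background (horizontal axis, log2 units) for each of the 31 small subunit protein genes (vertical axis). Points are means and bars are SD over 4 arrays. All points lie between 3.84 and 6.57, right of the dashed line at 0 that marks background.

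The proteins around the messenger RNA entry and the decoding site come first. The gene rps-3 (C23G10.3), whose protein lines the entry channel and helps unwind messenger RNA, had signals of 16627, 16345, 16653 and 16580 on arrays 1 to 4. These 4 values lay within a 1.02-fold range, with array 3 highest and array 2 lowest. Its log2 signal lay 5.70 ± 0.19 above background (SD, n = 4). The neighbouring entry-channel protein gene rps-2 (C49H3.11) gave a mean signal of 26102 ± 691.9 (SD, n = 4) over a 1.06-fold range. It shared with rps-3 the order of arrays 3, 1, 4 and 2 from high to low, and no other member had that order. For rps-23 (F28D1.7), whose protein sits in the decoding centre and affects accuracy, the mean signal was 16207 ± 675.4 (SD, n = 4) over a 1.08-fold range. Here arrays 1 and 4 were the higher pair and arrays 2 and 3 the lower pair.

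The gene rps-30 (C26F1.4) encodes a small basic protein near the entry channel, which in mammals is made as a fusion to a ubiquitin-like protein. It gave signals of 10310, 9125, 9110 and 9293 on arrays 1 to 4. Arrays 2 to 4 lay within a 1.02-fold range, and array 1 stood 1.12-fold above their mean. Of the head proteins with tails that reach the tRNA sites, rps-15 (F36A2.6) had a mean signal of 16306 ± 710.1 and rps-16 (T01C3.6) of 15782 ± 713.7 (SD, n = 4 each). Both were highest on array 1, over 1.10-fold ranges. The gene rps-18 (Y57G11C.16), whose head protein bridges to the large subunit, had a mean of 11979 ± 532.7 (SD, n = 4) and lay 5.23 ± 0.22 above background on the log2 scale. It too was highest on array 1 and lowest on array 3.

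Several proteins around the platform and the messenger RNA exit differed between arrays mainly through array 1. The gene rps-21 (F37C12.11), whose small eukaryotic protein binds beside that of rps-0 (B0393.1), had signals of 9260, 7145, 7770 and 7590 on arrays 1 to 4. Array 1 was 1.24-fold above the mean of the other three, and the whole range was 1.296-fold. Its SD of 0.16 on the log2 scale equalled that of rps-22 (F53A3.3) to 2 decimals, and over all 4 arrays these were the largest of the 31. Without array 1 the SDs were 0.062 for rps-21 and 0.035 for rps-22, and the largest were 0.086 for rps-9 (F40F8.10) in the body, 0.081 for rps-25 (K02B2.5) in the head and 0.075 for rps-28 (Y41D4B.5). For rps-22, whose counterpart in bacteria is an early-binding protein of the central domain, the signals were 12232, 9954, 9554 and 9981. Its range was 1.28-fold over the 4 arrays and 1.04-fold without array 1, so nearly all of its spread came from that array.

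The exit-side gene rps-28 (Y41D4B.5) had the lowest value above background, 3.84 ± 0.31 on the log2 scale (SD, n = 4). Its signals were 5280, 4143, 4397 and 4593 on arrays 1 to 4, a 1.27-fold range with array 1 highest and array 2 lowest. For rps-14 (F37C12.9), a platform protein needed in yeast and mammals for the last steps of ribosomal RNA maturation, the signals were 18794, 16545, 15803 and 16137. Array 1 exceeded the mean of the others 1.16-fold, while those others lay within 1.05-fold. The zinc-binding platform protein gene rps-27 (F56E10.4) had signals of 10418, 8996, 8783 and 9211 and the same pattern, with array 1 1.16-fold above the mean of the rest.

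The other platform and exit members varied less. The gene rps-0 encodes the protein whose mammalian counterpart is also known as a laminin receptor. Its signals were 29315, 26533, 27639 and 27797, a 1.10-fold range with array 1 highest and array 2 lowest. For rps-1 (F56F3.5), beside the exit, the mean signal was 18164 ± 869.8 (SD, n = 4), with array 4 lowest. The gene rps-26 (F39B2.6), whose protein touches the message upstream of the start codon and whose human counterpart is mutated in Diamond-Blackfan anaemia, had a mean of 10898 ± 395.0 (SD, n = 4). Its array 1 value lay 1.05-fold above the mean of the others. For rps-13 (C16A3.9), whose bacterial counterpart binds the central domain of the ribosomal RNA, the mean was 5761 ± 404.1 (SD, n = 4) over a 1.16-fold range, with arrays 2 and 3 nearly equal and lowest. In rps-5 (T05E11.1), a head protein at the exit with a counterpart in bacteria, the mean was 24360 ± 605.2 (SD, n = 4) and the range 1.06-fold.

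Proteins of the body included the flattest member and moderately variable ones. The gene rps-8 (F42C5.8), an early-assembling eukaryotic protein, had signals of 19124, 19198, 19088 and 19333 on arrays 1 to 4. This 1.01-fold range was the narrowest of the members, and only 0.10% of the transcripts above background had a smaller SD. For rps-4 (Y43B11AR.4), a body protein without a bacterial counterpart, the signals were 30951, 29755, 30261 and 30234, a 1.04-fold range with array 1 highest. The gene rps-6 (Y71A12B.1) encodes a protein whose mammalian and yeast counterparts are phosphorylated by TOR-dependent kinases. Its signals were 27593, 24705, 25993 and 24978, with array 1 highest, array 2 lowest and a 1.12-fold range.

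Among the remaining body proteins, rps-7 (ZC434.2), whose human counterpart acts in ribosomal RNA processing, was highest on array 4, with a mean signal of 18001 ± 363.5 (SD, n = 4), and its values lay within 1.04-fold. The gene rps-9 (F40F8.10), whose bacterial counterpart starts subunit assembly, had a mean of 8992 ± 589.2 (SD, n = 4) over a 1.17-fold range. Array 3 stood low for this gene, and the range without array 1 was still 1.12-fold. For rps-11 (F40F11.1), which has a counterpart in bacteria, the mean was 13061 ± 470.1 and for rps-24 (T07A9.11), another Diamond-Blackfan anaemia gene in humans, 16314 ± 449.5 (SD, n = 4 each). Array 1 was highest for both, by 1.07-fold and 1.04-fold over the mean of the others.

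The remaining proteins of the head were all highest on array 1. The gene rps-20 (Y105E8A.16), whose mammalian counterpart is ubiquitinated on stalled ribosomes, had a mean signal of 19501 ± 630.8 (SD, n = 4). Arrays 2 to 4 lay within 1.01-fold of each other and array 1 was 1.06-fold above their mean. For rps-10 (D1007.6), ubiquitinated in mammals on stalled ribosomes like rps-20, the mean was 15834 ± 890.1, and for the beak protein gene rps-12 (F54E7.2) it was 10987 ± 600.1 (SD, n = 4 each). Both had array 1 highest and array 3 lowest. The genes rps-17 (T08B2.10) and rps-19 (T05F1.3), whose human counterparts are mutated in Diamond-Blackfan anaemia, had means of 9001 ± 574.5 and 11299 ± 437.0 (SD, n = 4 each). For rps-17 array 1 was 1.13-fold above the mean of the others and for rps-19 1.07-fold. The zinc-binding protein gene rps-29 (B0412.4) had a mean of 8090 ± 568.4 (SD, n = 4), with array 4 lowest. For rps-25 (K02B2.5), needed in yeast and mammals for translation from internal entry sites, the mean was 15058 ± 823.8 (SD, n = 4). Its spread came from a low array 2, and without array 1 the range was 1.12-fold, close to the 1.13-fold of all 4 arrays.

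Across the family array 1 was mostly on top, while the order of the other arrays varied from gene to gene. Array 1 gave the highest signal for 27 of 31 members, against 30.3% of all transcripts above background. It gave the lowest signal for 0 of them, against 51.4%. The exceptions were rps-2 and rps-3, highest on array 3 (20.9% of transcripts above background), and rps-7 and rps-8, highest on array 4 (20.3%). The lowest signal was on array 3 for 15 members (19.8% of transcripts above background), on array 2 for 13 (18.2%) and on array 4 for 3 (10.6%). These counts describe 4 single arrays and have no replicate check. Of the body wall muscle markers 13 of 14 were also highest on array 1, and their part in the order of the ribosomal protein genes was not tested. In bulk samples such as these, a different number of cells of a type and a different amount of RNA per cell cannot be told apart.

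The sizes were small. The median member deviated from the mean of the 4 arrays on the log2 scale by 0.084 on array 1, whereas arrays 2 to 4 gave -0.049, -0.041 and -0.0004. Over all transcripts above background the medians were -0.047, 0.023, 0.0035 and 0.014 in the same order. Array 1 exceeded array 2 for 30 of 31 members (36.2% of transcripts above background), by a median of 1.09-fold. It exceeded array 3 for 29 (41.9%) and array 4 for 29 (38.8%), by medians of 1.09-fold and 1.06-fold. For 18 members array 1 lay above the highest other array by more than the whole range of the other three, which was so for 18.9% of transcripts above background.

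Arrays 2 to 4 differed less among themselves. Array 3 exceeded array 2 for 16 of 31 members (46.0% of transcripts above background) and array 4 for 10 (47.1%). Array 2 exceeded array 4 for 6 (48.8%). The median log2 difference was -0.0019 for array 2 minus array 3, -0.032 for array 2 minus array 4 and -0.030 for array 3 minus array 4. The most frequent full order was arrays 1, 4, 2 and 3 from high to low, in 10 members, an order held by 5.14% of transcripts above background. The next was arrays 1, 4, 3 and 2 in 6 members (4.74%), and arrays 1, 3, 4 and 2 followed in 5 (9.43%).

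**Figure D2:**
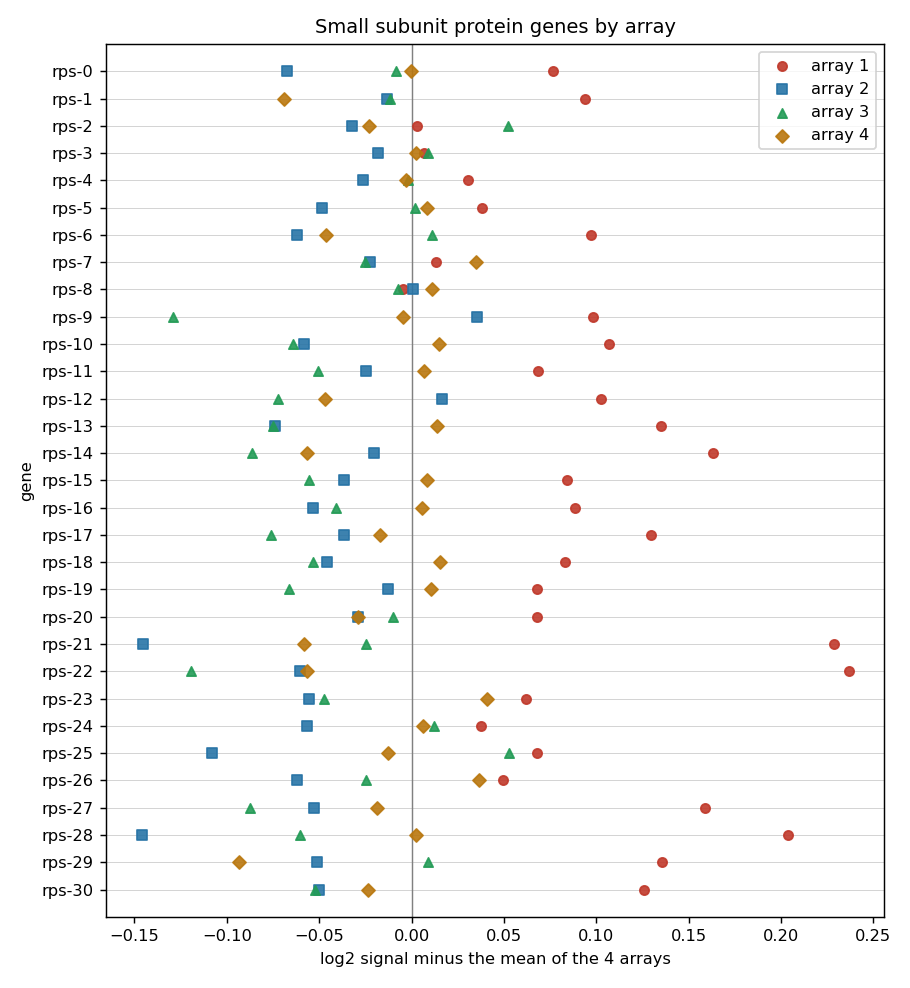
Log2 signal of each small subunit protein gene minus its mean over the 4 arrays (horizontal axis, log2 units), by gene (vertical axis), with 1 symbol and colour per array. Array 1 is the rightmost point for 27 of 31 genes, farthest for rps-21 and rps-22, while rps-3 and rps-8 have nearly coinciding points.

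The spread between arrays was smaller than that of most transcripts above background, and nearer to that of transcripts of similar signal. The median member had an SD of 0.064 on the log2 scale over the 4 arrays, against 0.11 for all transcripts above background, and 28 of 31 members lay below that second value. Transcripts within the members' own range of mean signal, 6467 in number, had a median SD of 0.072. Of these, 4856 also lay below the median of all transcripts above background. Without array 1 the median SD was 0.037 for the members, 0.045 for those 6467 transcripts and 0.064 for all transcripts above background. The coefficient of variation was under 5% for 17 members and over 10% for 3, rps-21, rps-22 and rps-28. Without array 1 it was over 10% for 0 of the 31. These thresholds were chosen after the values were seen, and no share over all transcripts is given for them.

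Dimmer members varied more. Over the 31 members the mean log2 signal and the SD had Pearson's r = -0.69 and Spearman's rho = -0.72. All points share the same 4 arrays and their normalization, and genes are not independent replicates. Over the 6467 transcripts in the same signal range the values were -0.30 and -0.36. Without array 1 r was -0.48 over the members and -0.27 over those transcripts. The 10 dimmest members deviated on array 1 by a median of 0.14 on the log2 scale, the 11 in the middle by 0.069 and the 10 brightest by 0.053. Over the 31 members mean signal and deviation on array 1 had r = -0.67, while over the 6467 transcripts r was 0.048. In that set array 1 was the highest array for 28.1%. Signals of the brightest members, up to 30951, stayed below the array maxima. The values are averages over probes after normalization, so they do not tell whether single probes reached the scanner limit.

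**Figure D3:**
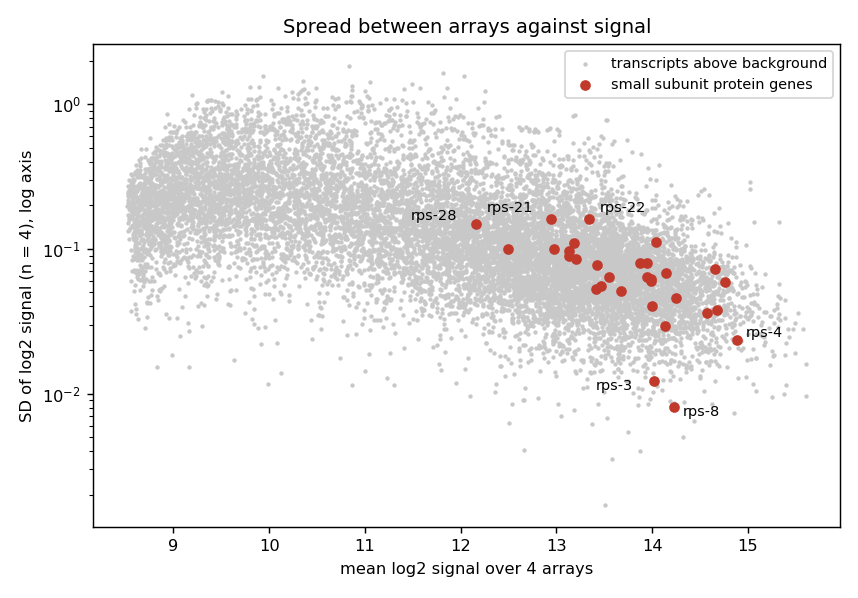
SD of the log2 signal over 4 arrays (vertical axis, log scale) against mean log2 signal (horizontal axis) for all transcripts above background (grey) and the 31 small subunit protein genes (red). The family lies mostly toward the bright end, but rps-28, at 12.16, is below the median of 12.25 for transcripts above background. Within the family rps-8 and rps-3 have the smallest SDs and rps-21, rps-22 and rps-28 the largest.

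Place in the particle and evolutionary class went with small differences. The 13 head proteins deviated on array 1 by a median of 0.084 and the 18 body and platform proteins by 0.085, on the log2 scale. Their median SDs were both 0.064. The 15 members with a counterpart in bacteria deviated by 0.083 and the 16 without by 0.096, with median SDs of 0.062 and 0.075. Those without were also dimmer, with a median log2 signal of 13.67 against 13.98. No test was run on these groups of genes.

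The genes lie apart in the genome. Chromosome IV held 10 members (16.3% of named genes on the arrays), chromosome III 9 (13.3%) and chromosome I 8 (14.2%). Chromosome V held 3 (4854 of the 19380 named genes), chromosome II 1 (17.5%) and the X chromosome 0 (13.6%). The median deviation on array 1 was 0.14 for the members on chromosome III, 0.13 on V, 0.076 on I and 0.050 on IV. The member on II, rps-9, deviated by 0.098. Brightness also differed, with median log2 signals of 13.42 on III, 13.21 on V, 13.97 on I and 13.99 on IV. Dimmer members deviated more on array 1, and the part of brightness was not tested. In the reference table, used only for gene order, 3 members adjoined a large subunit gene with 0 protein-coding genes between them. The pair rps-14 and rpl-36 had deviations on array 1 of 0.16 and 0.19. For rps-10 and rpl-24 they were 0.11 and 0.12, and for rps-30 and rpl-39 0.13 and 0.20. The variable members rps-14 and rps-21 were separated by 7 protein-coding genes.

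The other parts of the translation apparatus were also above background almost throughout, and array 1 was mostly the highest for the large subunit proteins. The large subunit proteins had 45 of 46 measured genes above background, with rpl-3 and rpl-4 at 6.16 and 6.53 on the log2 scale. Among named genes the share was 51.9%. The exception was rpl-42, which was below background by limma at -0.54 ± 0.039 (SD, n = 4; adjusted p = 0.000265), with signals of 192, 236, 204 and 251. The large subunit had its highest signal on array 1 for 41 of 46 genes (30.3% of transcripts above background), with a median deviation there of 0.12. Its medians on arrays 2 to 4 were -0.048, -0.050 and -0.014. The 2 subunits thus had array 1 highest for 27 of 31 and 41 of 46 genes, and the difference between them was not tested.

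Both further proteins of the small subunit that were measured were highest on array 1 as well. The scaffold protein gene rack-1 had signals of 22284, 20901, 21221 and 20363 on arrays 1 to 4. The gene rps-27A, whose protein is made as a fusion to a ubiquitin-like protein, had 12337, 9490, 9819 and 10124. It was added after its current symbol was seen in the reference table. Added in the same way were rplp-0, rplp-1, rplp-2.1 and rplp-2.2, not counted in the large subunit list. Of these, rplp-0, rplp-1 and rplp-2.1 were highest on array 1, with deviations of 0.053, 0.15 and 0.13. The gene rplp-2.2 was lowest there, at -0.052. The deviation of rps-27A on array 1 was 0.25 on the log2 scale, above that of any of the 31 members.

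Mitochondrial ribosomes, translation factors, assembly factors and the TOR signalling list had negative median deviations on array 1, near the -0.047 of all transcripts above background. All 29 mitochondrial small subunit genes were above background, among them mrps-2 at 4.43 and mrps-5 at 5.32 on the log2 scale. Only 1 of them, mrps-30, was highest on array 1, against 30.3% of all transcripts above background. The list's median deviation on array 1 was -0.062. All 35 initiation factor genes passed as well, with eif-1 at 5.67 and eif-1.A at 5.72, and 6 of the 35 were highest on array 1. Their median deviation there was -0.055. The 6 elongation factor genes passed, with eef-1A.1 and eef-1A.2, the carriers of aminoacyl-tRNA, at 7.08 and 7.17 above background, and 0 of the 6 were highest on array 1 (median deviation -0.038).

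All 20 measured genes of small subunit assembly and the nucleolus were above background. The box C/D methyltransferase gene fib-1 lay at 6.48 and nol-6 at 4.53 on the log2 scale. The one gene of this list highest on array 1 was ncl-1, known as a repressor of fib-1 and of nucleolar size, with signals of 17628, 15809, 16161 and 15416. The median deviation of the list on array 1 was -0.039. The 7 measured genes of the TOR and S6 kinase signalling list were all above background, with let-363 (TOR) at 5.34 and daf-15 (Raptor) at 5.68. Array 1 was the highest for 2 of the 7, let-363, with signals of 13260, 13145, 12948 and 12436, and aak-2, an AMP-activated kinase subunit, with 19991, 17845, 18703 and 18832. Array 1 was the lowest for 4. Over all transcripts above background it was the highest for 30.3% and the lowest for 51.4%. The gene rsks-1, the homolog of the mammalian kinase that phosphorylates the rps-6 counterpart, had signals of 5133, 6301, 5326 and 5741, and was 1 of these 4. The list's median deviation on array 1 was -0.052. The 4 arrays are shared by all these lists, so the values stand side by side and were not tested against each other.

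**Figure D4:**
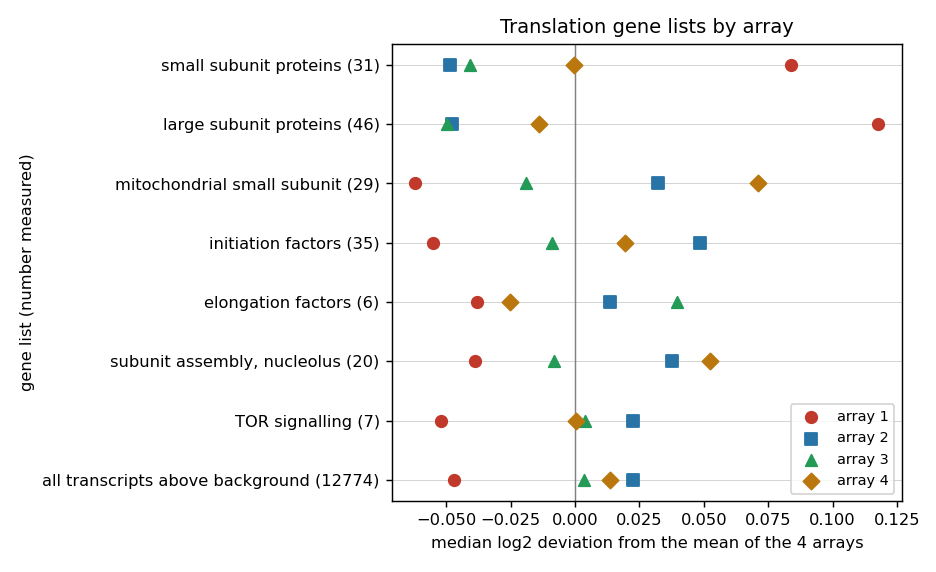
Median log2 difference to each gene's mean over the 4 arrays (horizontal axis, log2 units) for the small and large subunit proteins, 5 other translation gene lists and all transcripts above background (vertical axis, number of genes in brackets), with 1 symbol and colour per array. Array 1 lies at 0.084 and 0.12 for the small and large subunit proteins and between -0.062 and -0.038 for the others drawn. The list that holds rack-1 alone is not drawn.

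Marker lists of other differentiated tissues summed to more on array 1 than on any other array, though not every gene of them did. Of the 14 body wall muscle genes 13 were above background, against 51.9% of all named genes. Epidermis genes summed to 147427 on array 1 and 95869 to 106666 on the others, with 9 of 10 above background, intestine genes to 21511 and 12045 to 14069, with 4 of 10, and neuron genes to 37712 and 32374 to 33115, with 8 of 10. Array 1 was the highest for 10 of 10 epidermis, 6 of 10 intestine and 7 of 10 neuron genes, against 30.3% of all transcripts above background. The intestine sum came mostly from elt-2, ifb-2 and act-5, each highest on array 1, while vit-5 and pgp-1 were lowest there. The higher neuron sum on array 1 came mostly from unc-86, with signals of 6900, 2370, 3325 and 3016 on arrays 1 to 4. In the neuron list the brightest gene, snb-1, gave 19106, 19930, 19040 and 20110, and snt-1 and sbt-1 were highest on array 3. The summed signal of the 31 small subunit genes was 495420 on array 1 and 456189 to 466511 on the others. Markers not above background in these lists were unc-22 in muscle, rol-6 in epidermis, asp-1, cpr-1, vit-2, vit-5, vit-6 and pgp-1 in intestine, and rab-3 and snt-1 in neurons.

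Oocyte, maternal, early zygotic, sperm and heat shock lists summed to less on array 1 than on any other array. The oocyte and eggshell list summed to 95652 there and to 122601 to 134462 on the others. In it 8 of 10 genes were above background (51.9% of named genes), and perm-2 and perm-4 were not. Array 1 was the lowest for 7 of those 10, against 51.4% of all transcripts above background, a share that goes with each such count below. The maternal list summed to 235979 and 257764 to 269660, lowest on array 1 for 12 of 12. The early zygotic list summed to 25855 and 28300 to 31005, lowest there for 8 of 10. The sperm list, with 5 of 8 above background and spe-11, spe-38 and ssp-16 not, summed to 5639 and 8244 to 13469, lowest on array 1 for 8 of 8. The heat shock list, with 8 of 8 above background, summed to 70670 and 92189 to 116062, lowest there for 7 of 8. The part of these differences in the array order of the ribosomal protein genes was not tested.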

How the data were processed

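Per the labels, total RNA was labelled with Cy3 by NimbleGen. The deposited intensity values are averages over the probes of a transcript, made by the authors after quantile normalization, going by the naming of the deposited files. The background correction, genome build and probe numbers were not given. Since quantile normalization gives all arrays 1 distribution, a change common to most transcripts would be hidden. The series-wide table was identical to the 4 single tables (largest difference 0).

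Transcripts were named through the RefSeq gene table of assembly WBcel235: 17151 matched as written, 5352 without the isoform letter, and 678 did not match. A gene took its transcript with the highest mean. Log2 signal minus the array background (95th percentile of 1343 chemoreceptor genes) was fitted with limma 3.58.1 in R 4.3.3 (lmFit, eBayes, intercept only), two-sided, adjusted over 23181 transcripts at 0.05, and tested on simulated data. Array order and spread were described without a test. The members and lists were chosen with earlier results of these data known. Symbols not found and not used were rla-0, rla-1, rla-2, ubl-1, eft-2, eft-3, eft-4, nol-5, rcl-1, rrbs-1, bud-23, dimt-1, mpp-10, wdr-3 and lst-8. The reference table holds no older symbols, so some genes meant by these can be on the arrays under current symbols. The genes rpl-41.1 and rpl-41.2 had no transcript on the arrays. All 31 members could be named. Signals of every array were given for the 5 members of largest SD, the 3 of smallest SD, rps-0, rps-30, rps-3, rps-6, rps-14, rps-27 and any set apart by Dixon's test. Of the translation lists the first 2 measured members were named. The rule also allowed up to 2 genes per list not above background, and in the marker lists all such genes were named. Further genes (neighbours, kinases, single markers, exceptions, rps-27A, the rplp genes) were chosen after their values were seen. So were the groups by place in the particle, bacterial counterpart, brightness and chromosome, and the thresholds on the coefficient of variation. None of these was tested. Alternatives were 3 other backgrounds, each array left out, an offset of 50, centring of arrays, means in place of medians, and another transcript rule.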

Additional observations from a re-analysis of the deposited data

Results flagged for a closer look

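For rps-30 the signal of array 1 stood apart from the other 3 arrays. The gap between array 1 and the nearest array was 0.8396 of the whole range of its log2 signals, above Dixon's 95% critical value for 4 samples. Its signals were 10310, 9125, 9110 and 9293 on arrays 1 to 4. Chance flags about 1 in 20 groups, 31 genes were looked at, and 1211 transcripts, 9.48% of all above background, had 1 array set apart in this way. In 346 of these, 2.71% of all above background, that array was array 1 and the highest. The next ratios were 0.823 for rps-22 and 0.807 for rps-20, under the critical value, both with array 1 highest.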

How the results depend on the processing

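All 31 members stayed above background with the 99th or 75th percentile of the chemoreceptor genes, with the 25th percentile of all transcripts and without any 1 array. The lowest member value over these settings was 2.93 on the log2 scale, and the highest limma adjusted p was 5.74e-07. The other translation lists had 143 genes above background, 142 to 144 under these alternatives, and 148 with 5 genes added by their current symbols, a choice made after seeing the data. Array 1 was highest for 27 members under an offset of 50 and under centring, and for 27 to 29 with another array left out. The median deviation on array 1 was 0.071 to 0.082 with another array left out, 0.089 with centred arrays and 0.092 as a mean. The median SD was 0.064, and 0.037 to 0.077 with 1 array left out, lowest without array 1. It was 0.093 after removing the shift of all transcripts above background, a value not given here for other transcripts. The SD changed over 1.5 times for 20 members without array 1, 4 without array 2, 2 without array 3 and 1 without array 4. No share over all transcripts is given for these counts. Counts of large coefficients of variation and the relation of signal to SD were also taken without array 1, a choice made after seeing the data. No paired analysis was possible because the samples form 1 group. The array order rests on single arrays, and 4 values per gene limit its precision.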
